A study of Rattus norvegicus with 6 samples.

Results

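The genes for the proteins of the mitochondrial ribosome were followed in macrophages of the brain borders after ischemia. Their symbols begin with *Mrpl* (large subunit) or *Mrps* (small subunit) and a digit, and this name alone chose them. The array annotation gives 97 probe sets that name exactly 1 such gene, and they name 73 genes of the 14217 named by a single symbol. RefSeq lists 78 protein-coding rat genes with such a symbol, and the others are not analysed here. Each gene was read from its probe set of highest mean over the 6 arrays. All 73 passed the filter on low signal, so the counts below cover every member.

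The mitochondrial ribosome is the machine that translates the few proteins encoded by mitochondrial DNA, all of them core subunits of the respiratory chain and of ATP synthase. Its RNAs come from mitochondrial DNA, but its proteins are encoded in the nucleus, made in the cytosol and imported. Some of these proteins descend from those of bacterial ribosomes, whereas others were added in mitochondria, and a mitochondrial ribosome needs both kinds in balanced amounts.

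Each array held RNA of CD11b+CD163+ perivascular and meningeal macrophages (border-associated macrophages, BAMs) sorted by FACS from the right hemisphere of 1 adult male Sprague-Dawley rat. The 3 control rats (63, 68 and 69) had no ischemia, and the 3 ischemic rats (64, 65 and 66) had, by the study's methods, a middle cerebral artery occluded for 1 h and then 16 h of reperfusion. The labels name no genetic change or drug for either group, and rats were the replicates. By the study's methods, the occlusion was done under isoflurane with the analgesic buprenorphine. No sham operation is described for the controls, so ischemia cannot be told apart from surgery, anaesthesia and analgesic. The expression array (Affymetrix) reads transcripts near their 3′ ends, and its values are on the log2 scale, where 1 unit is a doubling.

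The arrays had medians between 7.82 and 7.90, but the array of control 63 reached only 13.85, whereas the others reached 14.88 to 14.96. Values 3′ minus 5′ of beta-actin were 0.058 to 0.073 in controls and 0.17 to 0.24 post-ischemia. All 7 border macrophage markers measured were detected, with a median level per rat of 12.91 to 13.86 in controls and 12.95 to 14.08 post-ischemia, and 1 of them rose (*Itgam*, which encodes CD11b). Some markers of other cells moved with the groups. Of 5 monocyte markers, 4 rose, with the largest differences for *Vcan* (6.74), *Fn1* (5.96) and *Ly6c* (4.68). The median level of the 5 was 6.78 to 8.57 in controls and 12.34 to 13.05 post-ischemia. *Ccr2* did not pass the test and was already high in controls (mean 12.06, against 12.49 post-ischemia). The study lists *Vcan* and *Fn1* among the top genes upregulated in the CD163+ macrophages. The 5 granulocyte markers on the array had medians of 5.90 to 6.02 in controls and 8.10 to 8.34 post-ischemia. They did not move alike. Of the 3 tested, *S100a8* rose (3.36), while *S100a9* (2.19) and *Cxcr2*, which was lower (-0.50), did not pass the test. The others were under the filter on low signal. Of 6 oligodendrocyte markers, 3 fell, from medians of 9.56 to 11.28 to medians of 7.53 to 8.79, and of 4 microglial markers tested 1 fell. Of 4 neuronal markers tested 1 fell (*Gria2*, with a difference of -3.75), of 4 astrocytic ones 1 rose (*Gfap*, with 2.07), and of 3 endothelial ones 0 passed the test. Control 63 stood apart in endothelial and astrocytic markers, with 10.52 for *Cldn5*, 9.39 for *Kdr* and 10.18 for *Aqp4*, against 6.09 and 7.03, 5.36 and 5.94, and 7.78 and 7.68 in controls 68 and 69. Without control 63, 13 members rose (10.1% of all genes) and their median difference was 0.55. The part of these markers and of the 3′ to 5′ values in the results below was not tested. In sorted bulk RNA, a change in the mix of cells and a change in RNA per cell cannot be told apart.

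Post-ischemia, the mitochondrial ribosomal protein genes were higher as a group. Of the 73 members, 35 rose, 0 fell and 38 did not pass the test (limma, adjusted p under 0.01 over all 9928 genes tested), and 0 were lower even at an unadjusted p under 0.05. Among all 9928 genes tested, 16.8% rose and 5.99% fell, and 1809 were lower at an unadjusted p under 0.05. The difference, ischemia minus control, was above 0 for 72 of the 73 members and for 57.2% of all genes tested. Its median over the members was 0.66 (1.58-fold), between -0.0068 for *Mrpl42* and 1.42 for *Mrpl47*, and 0.10 over all genes. In 64 of the 73 members every ischemic rat lay above every control rat, whereas this held for 35.7% of all genes tested. In 0 members did every ischemic rat lie below every control rat, against 1976 of the 9928 genes tested. With a threshold of 0.05 in place of 0.01, 54 members rose (27.4% of all genes), and 0 members passed the study's added demand of a log2 fold change beyond 2 (1.63% of all genes).

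The count of risen members depended on the scale that the arrays were set to. When each array was centred on its cytosolic ribosomal protein genes, 2 members rose (*Mrps34* and *Mrps18b*) among 3.25% of all genes. In that fit 0 members fell, while 2393 of the 9928 genes tested fell, against 595 without the centring. The members' median was then 0.090 and that of all genes -0.47. The direction then turned for 26 of the 73 members. The distance between the members' median and that of all genes was 0.56 under both scalings, since a shift common to all genes leaves it as it is. Leaving out 1 rat left between 9 risen members (without ischemia 65, 6.86% of all genes) and 31 (without ischemia 64, 15.8%).

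**Figure D1:**
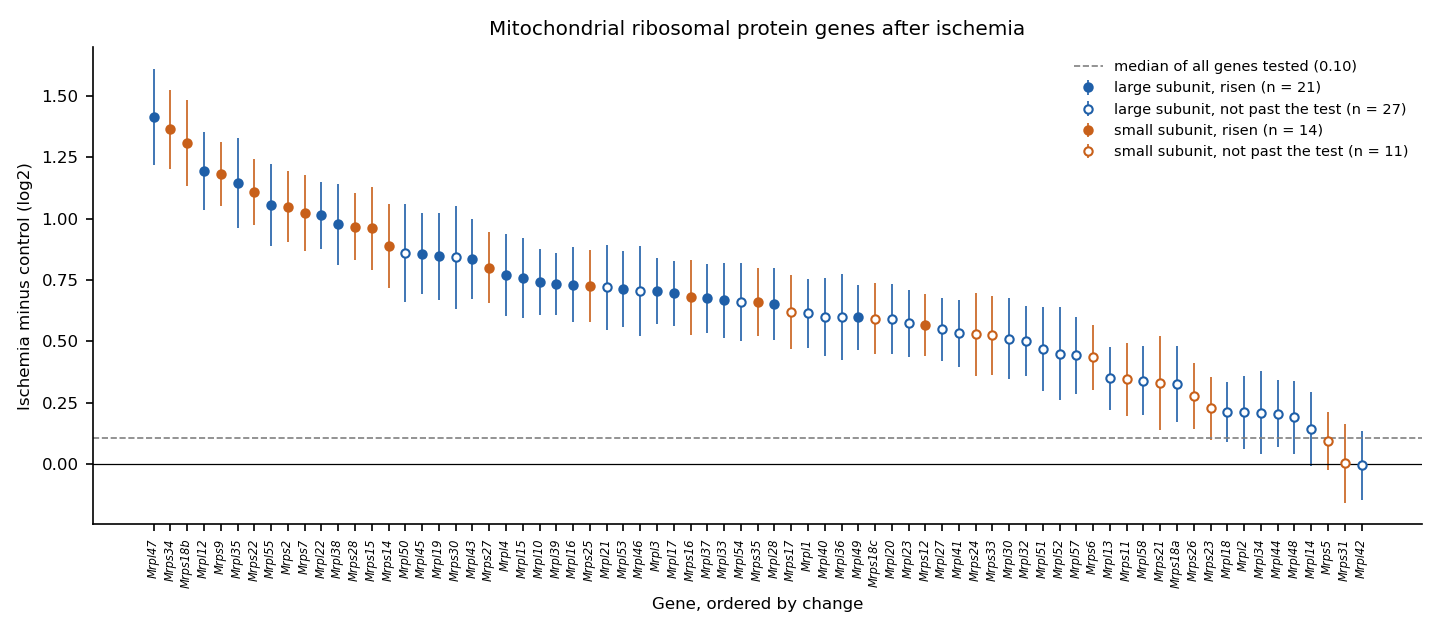
Ischemia minus control (log2) for each of the 73 mitochondrial ribosomal protein genes, ordered by size, with bars of 1 SE, blue for the large and orange for the small subunit, and filled points for genes that rose. The points run from 1.42 for *Mrpl47* down to -0.0068 for *Mrpl42*, and 35 are filled.

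Promoter sequences of 59 members were found in RefSeq (build GRCr8), and 250 bases upstream of the start are shown for members at both ends of the range. *Mrpl47*, *Mrps18b* and *Mrpl12* were among the 4 largest rises, and *Mrpl42* and *Mrps31* had the smallest differences. Capitals mark matches, on either strand, to the letters GCGC, 2 bases of any kind and GCGC (bound by NRF1), CCGGAAG (bound by ETS factors such as GABP), CACGTG (the E-box), AANATGGC (bound by YY1) or TGATGNAA (bound by ATF4).
*Mrpl47*, chr2:117447362-117447611, minus strand: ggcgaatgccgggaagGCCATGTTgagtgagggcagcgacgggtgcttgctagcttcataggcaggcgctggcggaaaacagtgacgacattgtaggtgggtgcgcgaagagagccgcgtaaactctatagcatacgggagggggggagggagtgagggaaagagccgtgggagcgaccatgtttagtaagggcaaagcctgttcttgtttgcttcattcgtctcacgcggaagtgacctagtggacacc
*Mrps18b*, chr20:2842756-2843005, plus strand: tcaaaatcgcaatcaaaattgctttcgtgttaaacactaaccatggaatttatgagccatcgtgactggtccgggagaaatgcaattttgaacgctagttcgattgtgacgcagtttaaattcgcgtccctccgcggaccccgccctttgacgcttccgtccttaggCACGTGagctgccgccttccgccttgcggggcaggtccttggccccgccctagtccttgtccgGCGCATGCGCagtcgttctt
*Mrpl12*, chr10:106256496-106256745, plus strand: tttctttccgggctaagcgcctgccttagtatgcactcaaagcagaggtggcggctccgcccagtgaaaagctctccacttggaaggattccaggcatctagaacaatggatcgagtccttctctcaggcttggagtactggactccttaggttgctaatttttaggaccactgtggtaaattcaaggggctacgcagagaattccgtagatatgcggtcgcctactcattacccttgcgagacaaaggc
*Mrpl42*, chr7:32028523-32028772, minus strand: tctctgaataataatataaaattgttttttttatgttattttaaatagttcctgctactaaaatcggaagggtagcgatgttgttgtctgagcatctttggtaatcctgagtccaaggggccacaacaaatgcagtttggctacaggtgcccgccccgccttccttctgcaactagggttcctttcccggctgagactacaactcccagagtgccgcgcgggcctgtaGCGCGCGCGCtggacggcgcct
*Mrps31*, chr16:76324066-76324315, minus strand: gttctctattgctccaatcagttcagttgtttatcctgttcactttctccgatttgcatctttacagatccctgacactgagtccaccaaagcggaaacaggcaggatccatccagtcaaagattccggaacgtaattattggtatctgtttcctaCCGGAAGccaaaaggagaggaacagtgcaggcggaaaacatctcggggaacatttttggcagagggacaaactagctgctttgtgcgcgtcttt

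Counting bases from 1 at the gene's start, with -1 just before it, the window that was searched ran from 250 bases before the start to 50 after it. In the *Mrps18b* promoter the E-box match began at -83 and the NRF1 match at -20, and further matches began at -3 (ETS) and 29 (YY1). The YY1 letters were matched in 21 of the 59 member promoters (35.6%), against 10.9% of the promoters of 8354 tested genes and 7.36% of all 27457 promoters. Most of these matches read in the sense direction and lay just after the start, where their ATG can also be a start codon. Examples are 6 stretches of 30 bases from risen and not risen members, of which that of *Mrps6* has its match from -3, just before the start.
*Mrpl47*, chr2:117447321-117447350, minus strand, match from 23: tctgcattagaAACATGGCtgccaccagtc
*Mrps18b*, chr20:2843023-2843052, plus strand, match from 29: ggatgtgcgacAAGATGGCtgcctccttgc
*Mrps9*, chr9:52605697-52605726, plus strand, match from 31: ttcttacggccAACATGGCcgccccctgta
*Mrpl42*, chr7:32028485-32028514, minus strand, match from 20: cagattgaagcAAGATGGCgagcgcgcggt
*Mrpl18*, chr1:50384944-50384973, plus strand, match from 4: ttcccgcagttAACATGGCtgcgactagtt
*Mrps6*, chr11:44778653-44778682, plus strand, match from -3: aagattccatcAAGATGGCagccaagaccc

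The ETS letters were matched in 33.9% of the member promoters (20 of 59), 19.4% of those of tested genes and 9.22% of all promoters. For the NRF1 letters the shares were 20.3% (12 of 59), 13.7% and 6.15%. The E-box was held by 10.2%, 9.78% and 6.65%, and the ATF4 letters by 3.39%, 1.88% and 3.82%. Matches were found in promoters of members that rose and of members that did not pass the test alike. Of 24 risen members with a promoter, 8 held the YY1 letters, 6 the ETS letters, 4 the NRF1 letters, 2 the E-box and 0 the ATF4 letters. Of 35 that did not pass, the counts were 13, 14, 8, 4 and 2. The median GC content was 56% in the member promoters, 61.3% in those of tested genes and 52.3% in all. The matches are descriptions of letters, and no binding was measured. In *Mrps6* the ATF4 match ended on the first base of the YY1 match.

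Among the proteins of the large subunit that have a bacterial homologue, 14 of 27 genes rose, with a median difference of 0.67. The largest rise of all members was that of *Mrpl47*, whose product lies near the exit of the peptide tunnel. Its values were 9.08, 9.54 and 8.996 in control rats 63, 68 and 69 and 10.33, 10.85 and 10.68 in ischemic rats 64, 65 and 66. The groups were separated by more than their own ranges, and the rise was 1.42 ± 0.20 (SE, adjusted p = 0.0014 in limma). *Mrpl12* encodes the stalk protein to which translation factors dock. It had 9.62, 9.78 and 9.73 in controls and 10.62, 10.95 and 11.14 in ischemic rats, a rise of 1.20 ± 0.16 (adjusted p = 0.0012). The controls lay within a narrow range and all ischemic rats were above it. *Mrpl35* is the homologue of a small bacterial protein of the large subunit. It had 7.05, 7.65 and 7.30 in controls and 8.31, 8.70 and 8.44 in ischemic rats, and rose by 1.15 ± 0.18 (adjusted p = 0.0025). Control 63 was under the level of 7.16 that the filter on low signal uses.

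Further risen genes of this class encode parts of the stalk base (*Mrpl10*, 0.74), of the wall of the peptide tunnel (*Mrpl22*, 1.01; *Mrpl4*, 0.77) and of the surroundings of the peptidyl transferase centre (*Mrpl3*, 0.70). *Mrpl55* rose by 1.06, *Mrpl19* by 0.85, *Mrpl15* by 0.76, *Mrpl16* by 0.73 and *Mrpl17* by 0.70. *Mrpl28* (0.65) and *Mrpl33* (0.67) complete the risen genes of the class. The 13 that did not pass the test had differences of 0.14 or more.

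Among the proteins of the large subunit that are found only in mitochondrial ribosomes, 7 of 21 genes rose and the median difference was 0.60. They were *Mrpl38* (0.98), *Mrpl45* (0.86), whose product anchors the ribosome to the inner membrane, *Mrpl43* (0.83), *Mrpl39* (0.73), *Mrpl53* (0.71), *Mrpl37* (0.67) and *Mrpl49* (0.60). The SE of these differences lay between 0.13 and 0.17. *Mrps30* and *Mrps18a* carry a small-subunit name, but their products sit in the large subunit and are counted here. *Mrps30* showed the widest spread among controls, with 9.10, 9.97 and 9.61, against 10.37, 10.37 and 10.47 in ischemic rats. The groups did not overlap, but the difference of 0.84 ± 0.21 did not pass the test (adjusted p = 0.015). *Mrps18a* differed by 0.32 (adjusted p = 0.13) and *Mrpl58*, the peptidyl-tRNA hydrolase that frees stalled ribosomes, by 0.34 (adjusted p = 0.085), and neither passed the test.

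In the small subunit 14 of 25 genes rose and the median difference was 0.66. For the mitochondria-only proteins the count was 6 of 10 with a median of 0.69, and for those with a bacterial homologue 8 of 15 with a median of 0.62. *Mrps34*, of the mitochondria-only kind, had 8.83, 9.33 and 8.86 in controls and 10.30, 10.41 and 10.42 in ischemic rats. The ischemic rats lay close together, and all were well above control 68, the highest control. The rise was 1.37 ± 0.16 (adjusted p = 0.0008). *Mrps18b* is 1 of 3 genes related to a single bacterial gene, of which *Mrps18c* is counted here as the homologue, whereas the proteins of *Mrps18a* and *Mrps18b* hold positions that bacterial ribosomes lack and are counted as mitochondria-only. It had 9.29, 9.89 and 9.57 and then 10.76, 10.90 and 11.03. No value of one group reached the other, and the rise was 1.31 ± 0.18 (adjusted p = 0.0012). Of the other 2 genes, *Mrps18a* and *Mrps18c* (0.59, adjusted p = 0.013) did not pass the test.

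*Mrps9*, whose bacterial homologue reaches toward the peptidyl site, had 8.96, 9.02 and 8.79 in controls and 10.01, 10.08 and 10.24 in ischemic rats. All 3 ischemic rats exceeded the highest control, and the rise of 1.18 ± 0.13 had the lowest adjusted p of the members (0.0007). Of the mitochondria-only kind, *Mrps22* (1.11), *Mrps27* (0.80), which encodes a protein with RNA-binding repeats, *Mrps25* (0.73) and *Mrps35* (0.66) also rose. So did *Mrps7* (1.02), *Mrps28* (0.97), *Mrps15* (0.96), *Mrps14* (0.89) and *Mrps16* (0.68), which have bacterial homologues. *Mrps12*, the protein of the decoding centre, rose by 0.57, the smallest rise that passed.

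The 4 members of highest mean did not move alike. *Mrpl33* had 12.45, 12.80 and 12.59 in controls and 13.08, 13.33 and 13.42 in ischemic rats, and rose by 0.67 ± 0.15 (adjusted p = 0.0098), just inside the threshold. *Mrps2*, a protein of the small subunit's body and head junction, had 11.12, 11.25 and 10.96 and then 11.96, 12.32 and 12.20, a rise of 1.05 ± 0.15 (adjusted p = 0.0014). In both genes the groups were apart in all rats. *Mrpl42*, first assigned to the small subunit, had 11.92, 12.31 and 12.22 in controls and 12.13, 12.14 and 12.15 in ischemic rats. The ischemic values fell inside the range of the controls, and the difference was -0.0068 ± 0.14 (adjusted p = 0.97).

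*Mrps26*, a mitochondria-only protein of the small subunit, had 11.47, 11.77 and 11.59 in controls and 11.98, 11.91 and 11.78 in ischemic rats, a difference of 0.28 ± 0.13 (adjusted p = 0.13). *Mrps6*, with a bacterial homologue, had 11.07, 11.26 and 11.31 against 11.53, 11.77 and 11.63 (0.43 ± 0.13, adjusted p = 0.032). *Mrpl18*, whose bacterial homologue binds 5S RNA, had 11.21, 11.35 and 11.22 against 11.50, 11.39 and 11.54 (0.21 ± 0.12, adjusted p = 0.20). None of these 3 passed the test, although all ischemic rats lay above all controls in each, for *Mrps26* and *Mrpl18* by a narrow margin. The smallest differences beside *Mrpl42* were those of *Mrps31* (0.0024) and *Mrps5* (0.095). *Mrps31* had 10.39, 10.79 and 10.86 in controls and 10.82, 10.60 and 10.64 in ischemic rats, so the groups overlapped.

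**Figure D2:**
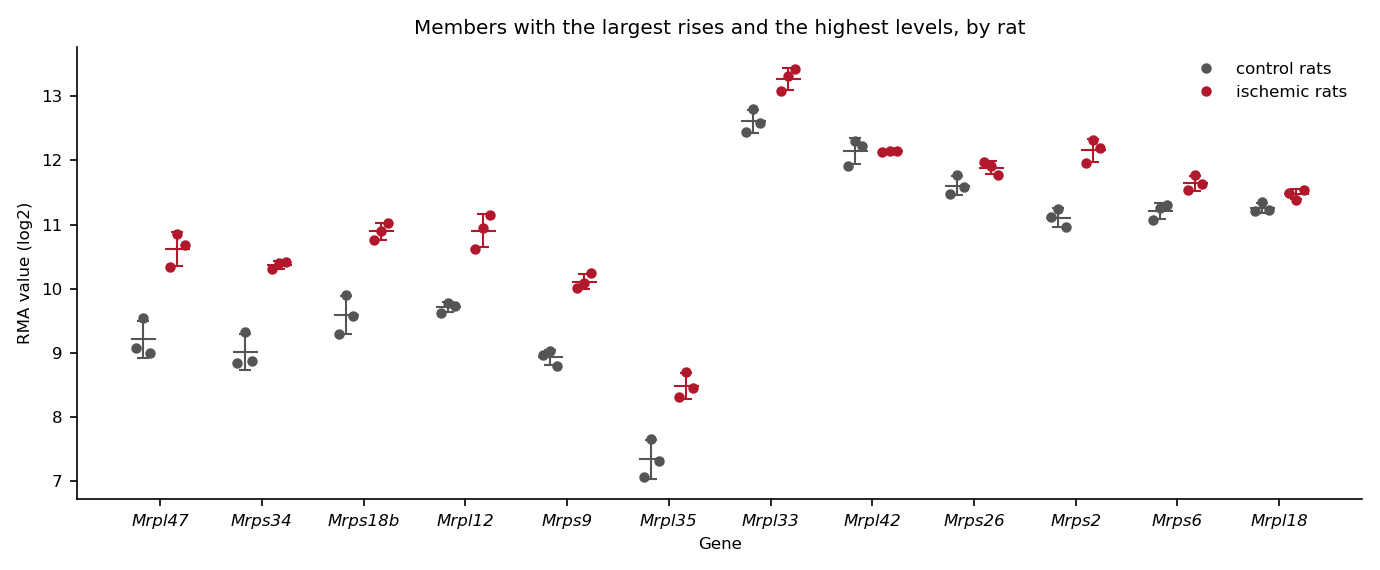
RMA value (log2) in each rat for the 6 members with the largest rises and for further members of high mean level, grey for the 3 control and red for the 3 ischemic rats, with lines at the mean ± SD. The groups are apart in every gene except *Mrpl42*, whose ischemic rats sit at 12.13 to 12.15 within the control range of 11.92 to 12.31.

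Levels of different genes are read by different probes and were not ranked against each other as amounts of RNA. Within the members, however, the difference was smaller where the control level was high. In the 25 members of lowest control level 14 rose with a median of 0.80, in the middle 24 there were 15 with 0.67, and in the 24 of highest level 6 with 0.53. Pearson's r between difference and control level was -0.37 and Spearman's rho -0.35 over the 73 members. These points share the same 6 arrays, and the control values enter both measures, so the coefficients are a description only.

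The shift was seen in each ischemic rat. The members' median distance from the mean of the controls was 0.53 in ischemia 64, 0.64 in ischemia 65 and 0.76 in ischemia 66, and -0.17, 0.17 and -0.015 in controls 63, 68 and 69. For all genes tested the same medians were 0.13, 0.093 and 0.087 in the ischemic rats and -0.11, 0.084 and 0.025 in the controls. The members varied together within groups. Control 63, which stood apart in endothelial and astrocytic markers, was the lowest control in 61 of the 73 members and control 68 the highest in 63. Of the ischemic rats, rat 64 was the lowest in 54 members and rat 66 the highest in 48. The members of 1 rat share its array, so they are not separate replicates of ischemia.

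**Figure D3:**
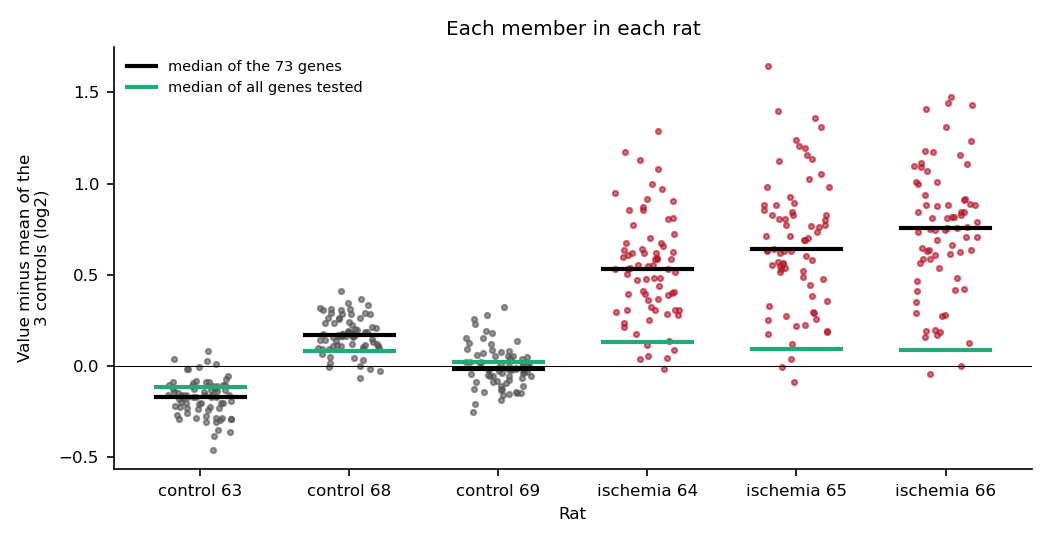
Each member's value minus the mean of the 3 controls (log2) in each rat, with the median of the 73 members in black and that of all genes tested in green. The black lines are at 0.53, 0.64 and 0.76 in the ischemic rats, while the green lines stay between 0.087 and 0.13.

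Most further probe sets of the members moved the same way. For 18 members the array holds more than 1 probe set, and 24 of these were not used above. Of them 20 passed the filter on low signal, and when tested in a fit of 14083 probe sets all 20 were above 0, with 11 that rose and 0 that fell, while 15.0% of all probe sets in that fit rose. The 4 under the filter were not tested, and 3 of them were below 0, the lowest at -0.20 (*Mrps18c*). For *Mrpl50* the used probe set differed by 0.86 (adjusted p = 0.011) and the other rose by 1.89 (adjusted p = 0.0026). For *Mrpl57* the values were 0.44 (adjusted p = 0.056) and 0.99 (adjusted p = 0.0063), and for *Mrps18c*, which also holds the untested one just named, 0.59 (adjusted p = 0.014) and 0.77 (adjusted p = 0.0024). The reverse was seen too. *Mrpl10* rose by 0.74 on the used probe set, but the other differed by 0.49 (adjusted p = 0.065), and *Mrpl37* and *Mrps27* each had 1 further probe set of 0.62 that did not pass beside another that rose. For *Mrpl40* neither passed (0.60 and 0.16).

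The partners of the mitochondrial ribosome were then described with lists written from general knowledge. Of 5 subunits whose symbols do not follow the naming rule, 2 rose, *Chchd1* (0.98) of the small and *Gadd45gip1* (0.76) of the large subunit. *Aurkaip1* (0.48, adjusted p = 0.027) and *Ptcd3* (0.30, adjusted p = 0.091) did not pass. With 1 rat left out the count was 0 to 2, and it was 0 without control 63, control 69, ischemia 65 or ischemia 66. Of 23 genes for assembly of the ribosome, 5 rose (21.7%, near the 16.8% of all genes) and 0 fell, with a median of 0.36. *Noa1* (1.09), a GTPase for assembly of the small subunit, and *Mrm1* (0.91) and *Mrm3* (0.86), which methylate the large ribosomal RNA, had the largest rises. *Mief1* (0.049) and *Mpv17l2* (0.42, adjusted p = 0.073) did not pass the test.

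Of 14 genes for mitochondrial translation and messenger handling, 6 rose (42.9%, against 16.8% of all genes) and 0 fell, and the median was 0.37. The 3 largest rises were those of the elongation factors, with 1.39 for *Gfm1* (EF-G), 1.35 for *Tsfm* (EF-Ts) and 1.33 for *Tufm* (EF-Tu). These are of the size of the largest rises of the ribosomal proteins. The initiation factor *Mtif2* (-0.010) and *Oxa1l* (-0.069), which inserts new proteins in the membrane, did not pass the test. Of 16 genes of mitochondrial tRNA charging, 3 rose (18.8%, near the 16.8% of all genes), namely *Rars2* (1.35) and *Yars2* (0.92), for arginine and tyrosine, and *Gatc* (0.65), part of the enzyme that completes glutaminyl-tRNA. The median was 0.14, and *Tars2* (0.062) and *Wars2* (-0.49, adjusted p = 0.028) did not pass.

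Of 14 genes for mitochondrial DNA upkeep and transcription, 2 rose (14.3%, also near that share), *Elac2* (0.87), which trims tRNA 3′ ends, and *Tfb2m* (0.55), a transcription factor of mitochondrial DNA, and the median was 0.29. *Ssbp1* (0.48, adjusted p = 0.022) and *Hsd17b10* (0.26) did not pass. The array names 2 genes of mitochondrial DNA, products of which this ribosome makes. *COX1* differed by -0.17 (adjusted p = 0.58) and *COX2* by -0.30 (adjusted p = 0.17), and neither passed. Of 71 nuclear genes of the respiratory chain and ATP synthase, 20 rose (28.2%, against 16.8% of all genes) and 0 fell, with a median of 0.45. *Cyc1* (1.33), *Ndufb6* (1.19) and *Uqcrq* (1.19) led them. *Cox8a* (0.33) and *Atp5mf* (0.27) did not pass.

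The cytosolic ribosome gave other counts than its mitochondrial relative. Of 42 cytosolic ribosomal protein genes 2 rose (4.76%, against 16.8% of all genes), *Rpl39* (1.27) and *Rpl34* (0.88), and 0 fell, with a median of 0.40. That median was 0.12 without control 63, 0.55 without control 68, 0.54 without control 69 and 0.14 with quantile normalization repeated. *Rps23* (0.35) and *Rpl19* (0.43) did not pass. Their median control level was 13.57, near the top of the arrays, where control 63 is compressed. Of 50 genes for nucleolar assembly of cytosolic ribosomes 42 rose (84%) and 0 fell, with a median of 1.19. *Bop1* (2.03), *Gar1* (1.94) and *Bysl* (1.85) led them, while *Nop10* (0.23) and *Utp3* (0.14) did not pass. The differences between lists were not tested. With the arrays centred on the cytosolic ribosomal protein genes, the medians of all lists except those of the members and of nucleolar assembly (0.62, with 15 risen) were below 0. Between 0 and 3 genes of each list fell in that fit, and 2393 of all 9928 genes tested. The counts of risen genes also moved when 1 rat was left out. For the respiratory chain it was 1 (without ischemia 65) to 18 (without ischemia 64), for assembly of the mitochondrial ribosome 1 to 5, for translation 3 to 6, for tRNA charging 2 to 4, for DNA upkeep 0 to 1, for cytosolic ribosomal proteins 0 to 3 and for nucleolar assembly 33 to 41. Of all genes, 6.86% (without ischemia 65) to 15.8% (without ischemia 64) rose in these fits.

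**Figure D4:**
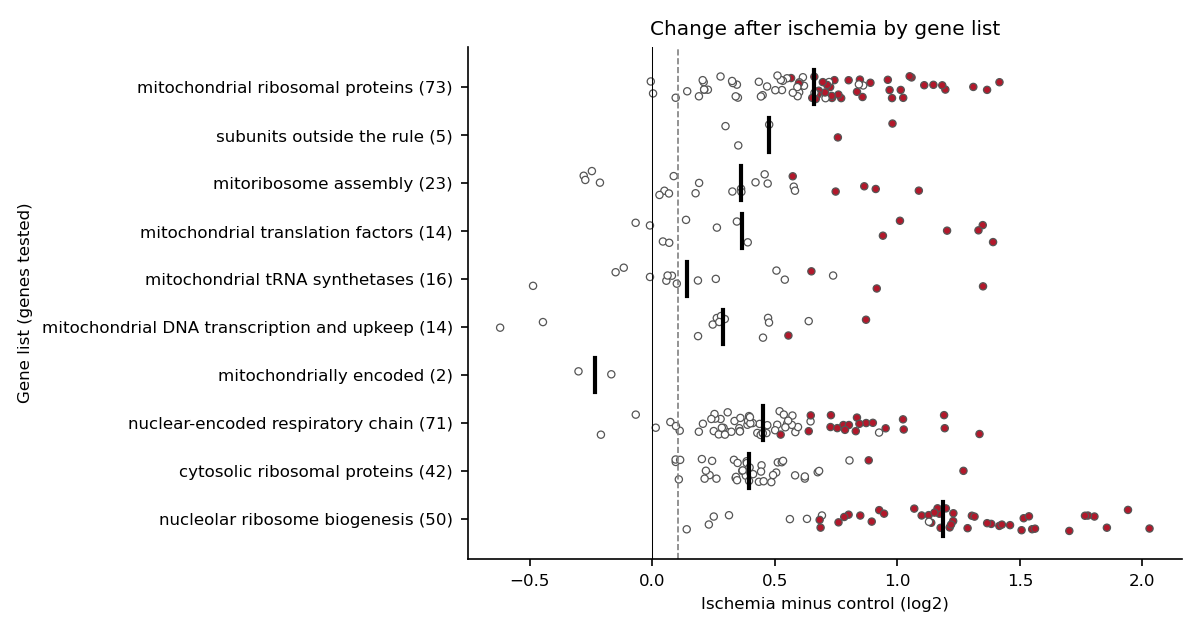
Ischemia minus control (log2) of each gene tested in the mitochondrial ribosomal protein list and 9 related lists, with filled points for genes that rose, a black bar at each list's median and a dashed line at the median of all genes (0.10). The members' bar is at 0.66, between those of the cytosolic ribosomal proteins (0.40) and of nucleolar ribosome biogenesis (1.19).

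Across the alternative settings, 0 members fell, and the members' median stayed above that of all genes by 0.42 to 0.66. Of all genes, between 166 and 2393 fell in the alternative fits. The centrings shift whole arrays and leave this distance as it is by construction, so they are no test of it. In all 6 fits with 1 rat left out, 9 members rose, namely *Mrpl12*, *Mrpl22*, *Mrpl47*, *Mrps2*, *Mrps9*, *Mrps18b*, *Mrps22*, *Mrps28* and *Mrps34*. Of all genes at most 6.86% can have done so, the share that rose without ischemia 65. In every such fit 71 members were above 0, and the share of all genes for which this held was not counted.

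**Figure D5:**
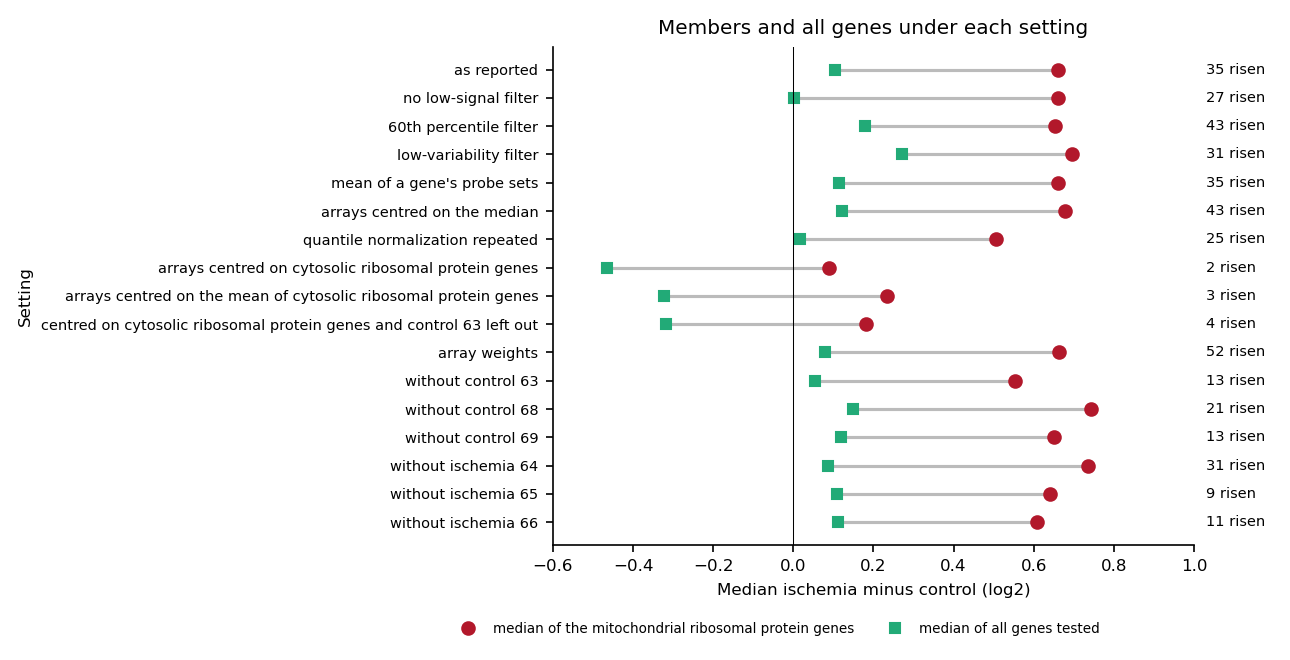
Median of ischemia minus control (log2) over the members (red circles) and over all genes tested (green squares) under each setting, with the number of risen members at the right. The circles move from 0.66 as reported to 0.090 with arrays centred on cytosolic ribosomal protein genes, and the squares move with them from 0.10 to -0.47.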

How the data were processed

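The authors normalized 6 arrays (3 control and 3 ischemic rats) with RMA, which corrects background, quantile-normalizes and summarizes probes, and deposited log2 values of 31099 probe sets. Their processing notes name R 3.3.1, limma 3.18 and RMA. Of the probe sets, 20826 had 1 gene symbol, 436 had several, 9780 had none and 57 were controls. Genes with at least 3 arrays above 7.16, the 40th percentile, were tested with limma 3.58.1 (lmFit and eBayes) in R 4.3.3, two-sided, with Benjamini-Hochberg adjustment over 9928 genes. "Rose" and "fell" mean an adjusted p under 0.01, and the ± values are SE with n = 3 per group. The fit was tested on simulated data. Arrays give no read depth, their number limits precision, and rats of the 2 groups were not paired.

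Values in every rat are given for the 6 largest rises, the 4 members of highest mean and the 4 of highest mean that did not pass. Lists give up to 3 of the largest changes and up to 2 genes of highest mean that did not pass. *Mrps30*, *Mrps18a*, *Mrpl58*, *Mrpl40*, *Cldn5*, *Kdr*, *Aqp4*, *Mrps31* and *Mrps5* were named after their values were seen. The members and lists were chosen with earlier results of these data known. Alternatives covered filters, probe sets, scaling, moderation, thresholds and each rat left out. Promoters are RefSeq sequences (GRCr8), matched by symbol.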

Additional observations from a re-analysis of the deposited data

How the results depend on the processing

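No paired analysis was possible because the control rats (63, 68 and 69) and the ischemic rats (64, 65 and 66) share no number. The count of fallen members was 0 under all alternatives. In the alternative fits, the number of all genes that fell lay between 166 (without ischemia 65) and 2393 (centred on the median of the cytosolic ribosomal protein genes). The count of risen members (35) was 2 with arrays centred on the median of the cytosolic ribosomal protein genes, 54 at an adjusted p under 0.05, 0 with a log2 fold change beyond 2, and 9 to 31 with 1 rat left out (13 without control 63, 21 without control 68, 13 without control 69, 31 without ischemia 64, 9 without ischemia 65, 11 without ischemia 66, where in turn 10.1%, 11.2%, 9.92%, 15.8%, 6.86% and 8.24% of all genes rose). It was, beside the share of all genes that rose, 27 without a filter (10.3%), 43 of 71 with a 60th percentile filter (22.2%), 31 of 63 with a low-variability filter (21.3%), 35 with probe sets averaged (17.2%), 43 with arrays centred on their median (18.3%), 25 after a further quantile normalization (14.0%), 52 with array weights (23.9%) and 37 with robust moderation (16.8%). Chosen after seeing the data were centring on the mean of the cytosolic ribosomal protein genes (3 risen, 4.02% of all genes) and centring on their median without control 63 (4 risen, 4.79%). The median difference of the members (0.66) was 0.090, 0.23 and 0.18 under these 3 centrings, and 0.51 to 0.74 otherwise.

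Under the same 3 centrings, in that order, members that did not pass the test turned to -0.36, -0.22 and -0.19 (*Mrpl18*), -0.29, -0.15 and -0.16 (*Mrps26*), -0.57, -0.42 and -0.52 (*Mrps31*), -0.48, -0.33 and -0.26 (*Mrps5*), -0.23, -0.087 and -0.14 (*Mrpl58*), and -0.25, -0.10 and -0.19 (*Mrps18a*). Under the median centring with and without control 63, *Mrps6* turned to -0.14 and -0.0092 and *Mrpl57* to -0.13 and -0.0096. *Mrps12*, which rose by 0.57, turned to -0.0052 under the median centring. *Mrps31* was also -0.15 with quantile normalization repeated, -0.14 with array weights, and with 1 rat left out -0.14 (without control 63) to 0.092 (without control 69), with -0.066 without ischemia 64, and *Mrps5* was -0.0018 with quantile normalization repeated. *Mrpl42* was 0.0097 with arrays centred on their median and with 1 rat left out -0.12 (without control 63) to 0.072 (without control 68), with 0.030 without control 69. Centring on the median of 1 family makes that family's median level the same on every array, but does not set its genes' changes to 0. The cytosolic ribosomal protein genes then had a median difference of -0.18, and of -0.25 without control 63. With centring on their mean it was -0.032. Which scale is nearer to the RNA per cell was not tested. Fits without 1 rat have fewer samples, and the number of members past the test is lower in each of them.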
